A study of Arabidopsis thaliana with 48 samples.

Results

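The genes described here are 8 loci of jasmonic acid (JA) perception and transcription: MYC2 (AT1G32640), MYC3 (AT5G46760), MYC4 (AT4G17880), JAM1 (AT2G46510), JAM2 (AT1G01260), JAM3 (AT4G16430), COI1 (AT2G39940) and NINJA (AT4G28910). They were picked by locus name from a table of 33211 features, and all 8 were found. All 8 were also among the 22252 genes kept for testing. The plants were wild-type Arabidopsis thaliana of the Columbia (Col-0) ecotype, grown at 23 °C with 16 h of light and 8 h of dark. At the age of 3 weeks the infested plants received 20 adult female spider mites each (Tetranychus urticae, an arthropod that pierces leaf cells and feeds on their contents), and control plants received none. Aerial parts of both were taken 30 min and 24 h after the mites were added, and then on days 4, 7, 12 and 15. Each of the 12 groups had 4 RNA-seq libraries, each made from 4 pooled plants, so every mean ± SD below is over 4 libraries. The p-values measure the spread between these pools.

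JA is the hormone that turns on the response of a plant to wounding and chewing or piercing herbivores. Its active form, JA joined to isoleucine, brings JAZ repressor proteins to COI1, the F-box receptor, and the JAZ proteins are then broken down. JAZ proteins hold back the transcription factors MYC2, MYC3 and MYC4, and NINJA is the adaptor that links JAZ proteins to TOPLESS-type corepressors. The JAM proteins are relatives of the MYC factors that bind similar DNA motifs and lower the expression of JA genes. In leaves the MYC factors are known for activating genes of wound response, glucosinolate synthesis and JA synthesis itself.

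In infested plants MYC2, the central activator, and JAM1, a repressor, stood far above control plants at 24 h, by log2 fold changes of 2.31 and 1.83. MYC3, JAM2, JAM3 and NINJA were also higher at 30 min, 24 h and 4 d, by log2 fold changes from 0.21 to 0.63. MYC4 was the only one of the 8 genes called lower at 30 min, a call lost in 6 of 15 alternatives. The calls of MYC3 and JAM3 at 30 min were lost in 3 and 4 of 15. COI1 was lower at 4 d and 7 d, by a log2 fold change of about -0.2 at both. These calls of COI1 were lost in 8 and 6 of 15 alternatives. At 12 d edgeR called none of the 8 genes, where 16.1% of all genes tested were called. All infested libraries of MYC2 and JAM1 lay below all control libraries at that time, as they did for 8.53% of all genes. At 15 d JAM1 was called, lower in infested plants, and the call was lost in 7 of 15 alternatives.

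Library totals lay between 12.5 and 23.4 M counts. At 30 min the infested libraries were shallower, with 13.7 ± 1.04 M counts against 19.3 ± 1.57 M counts in the control libraries. The lowest count of any of the 8 genes in any library was 228, for JAM2. Leaf markers (genes of photosynthesis) summed to 16080 to 48380 scaled counts per M library counts (CPM) in the 48 libraries, and the root hair genes RHD6 and EXP7 had no counts in any of them. The root list also holds PYK10 and SCR, with which its sum was 511 to 730 CPM in infested and 256 to 382 CPM in control libraries at 24 h, and 39.4 to 492 CPM in the libraries of all other groups. PYK10 was higher in infested plants at 24 h, 4 d, 7 d and 12 d, by log2 fold changes of 1.15 (adjusted p = 1.84e-06), 0.72, 0.67 and 0.58, and SCR was lower at 30 min, at -0.51. Of the 4 leaf markers, CA1 and RCA were lower at 24 h, by log2 fold changes of -0.57 and -0.54, and at 4 d, by -0.49 and -0.31. The leaf sum was 30130 to 31730 CPM in infested and 37510 to 42200 CPM in control libraries at 24 h, and 35590 to 38290 CPM against 42460 to 46110 CPM at 4 d. At 12 d LHCB1.1 was higher, and at 15 d all 4 leaf markers. The part of these markers in the results of those times was not tested. Seed genes summed to 0.176 to 22.8 CPM in control libraries of 15 d and to at most 0.438 CPM in all others. Summed CPM of 5 floral organ genes lay between 3.26 and 5.13 in all libraries of 30 min and 24 h. At 12 d it was 59.4 to 81.9 CPM in infested and 88.0 to 101 CPM in control libraries, and at 15 d 91.6 to 121 and 103 to 135 CPM. These organs thus form part of the later samples, and their part in the results of those times was not tested. The hour of harvest is not stated in the labels used here. Of 11 circadian clock genes, 2 were higher and 4 lower at 24 h, where 13% of all genes were called higher and 10.2% lower. PRR5 (log2 fold change 1.24) and CCA1 (-0.82) led them, and the part of the clock genes in the results was not tested.

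Control libraries of one group differed from each other in the level of JA genes. The summed level of the 13 JAZ genes lay between 2223 and 2913 CPM in infested libraries of 30 min, between 1824 and 2567 CPM at 24 h and between 1520 and 1801 CPM at 4 d. In control libraries the same sum lay between 461 and 1328 CPM at 30 min, between 333 and 854 CPM at 24 h and between 305 and 969 CPM at 4 d, a wider relative spread. In all 6 control groups the library with the highest MYC2 level also had the highest JAZ sum, and the library with the lowest MYC2 level the lowest. The summed level of 13 JA synthesis genes was highest in the same library as MYC2 in 6 of 6 control groups and lowest in the same one in 5. The circadian clock sum was highest in the same control library as MYC2 in 0 of 6 groups and lowest in 2. Clock genes moved in both directions at 24 h, so their sum may hide opposite changes, and the hour of harvest was not tested. At 4 d the control library of replicate 4 had the highest level of MYC2 and of JAM1, and values without it are given where they change a call or a direction.

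Levels of different genes are set side by side only per kb of exon, with exon lengths from the RefSeq annotation of TAIR10.1. Averaged over the 12 groups, MYC2 had 59.2 CPM per kb, NINJA 31.0, MYC3 25.5, JAM1 21.6, MYC4 20.5, COI1 15.8, JAM3 15.12 and JAM2 7.90 CPM per kb. MYC2 also moved over the widest range, from 23.5 CPM per kb in infested plants at 12 d to 134 CPM per kb in infested plants at 24 h. COI1 had the narrowest range, with group means from 13.6 to 17.7 CPM per kb.

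**Figure D1:**
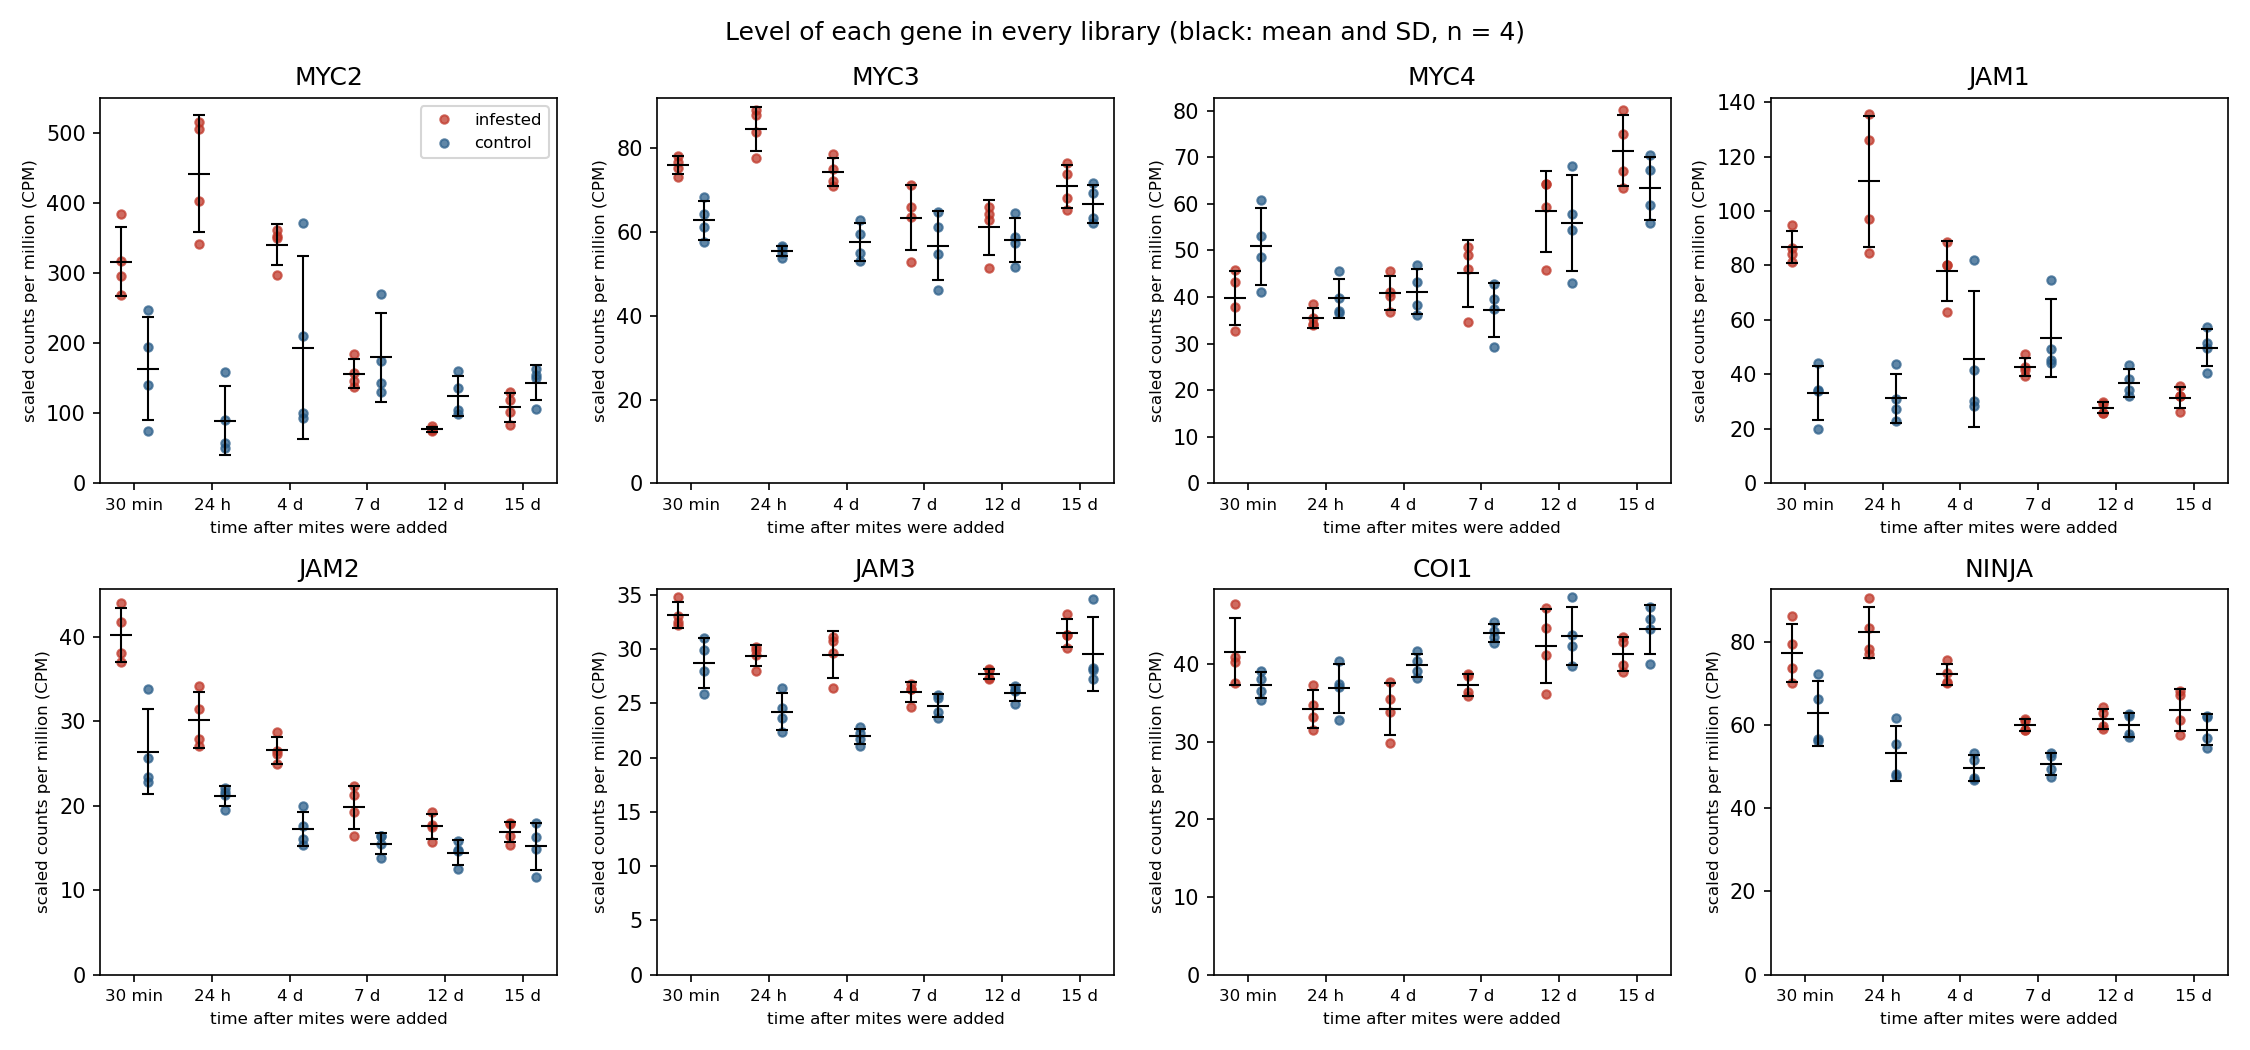
Level of each of the 8 genes in every library, in CPM, against the time after mites were added. Points are libraries (red infested, blue control) and black bars are the mean and SD of 4 libraries. MYC2 and JAM1 show the infested libraries far above the control libraries at 24 h, while COI1 stays between 29.8 and 48.7 CPM in all libraries.

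MYC2 had 384, 318, 268 and 295 CPM in the infested libraries at 30 min, against 195, 247, 140 and 74.2 CPM in the control libraries. The 4 infested libraries stood above all 4 control libraries, and the control libraries spread more widely. The log2 fold change was 0.95 (SE 0.33, adjusted p = 0.034 by edgeR's quasi-likelihood test with Benjamini-Hochberg adjustment, as for all adjusted p-values below). The call was lost without any one of control replicates 3 and 4 and infested replicates 1, 2 and 4, with adjusted p-values from 0.051 to 0.15, and also with no filter (0.055) and with the 8 libraries of 30 min fitted alone (0.11). At 24 h MYC2 had 516, 404, 342 and 506 CPM in infested libraries and 50.6, 158, 90.3 and 58.1 CPM in control libraries. Again the groups did not overlap, and the lowest infested library was above the highest control library by a wide margin. The log2 fold change was 2.31 (SE 0.35, adjusted p = 2.63e-06), and it lay between 2.11 and 2.73 in all alternatives, with a call in each.

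At 4 d MYC2 had 352, 297, 350.5 and 362 CPM in infested libraries, against 210, 100, 92.6 and 372 CPM in control libraries. The control library of replicate 4 lay above all infested libraries, and the other 3 below them. The log2 fold change of 0.81 (SE 0.33) did not pass the threshold, with adjusted p = 0.093. Without control replicate 4 it was 1.34, with adjusted p = 0.0034. At 7 d the infested libraries had 147, 157, 184 and 137 CPM and the control libraries 271, 143, 130.0 and 174 CPM, which overlapped. Their log2 fold change was -0.20 (adjusted p = 0.77). At 12 d infested libraries held 74.1, 82.0, 76.2 and 77.1 CPM, and control libraries 160, 136, 105 and 99.3 CPM. All infested libraries lay below all control libraries, yet the log2 fold change of -0.69 (SE 0.33) had adjusted p = 0.16. With the 8 libraries of 12 d fitted alone, adjusted p was 0.0097. At 15 d the infested libraries had 102, 83.5, 120 and 130 CPM and the control libraries 163, 107, 150.4 and 155 CPM, with overlap and a log2 fold change of -0.40 (adjusted p = 0.44).

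In the TAIR10.1 annotation 98.5% of the exon bases of MYC2 (3241 of 3289) are also covered by AT1G32630, a gene on the opposite strand. The sources used here give neither the strand setting nor the annotation of the counting. How reads of the shared bases were assigned to the 2 loci is therefore not known. MYC2 had 6.26 to 19.0 counts for each count of AT1G32630, with a median of 13.5 over the libraries. The log2 fold changes of AT1G32630 were 0.62, 1.58, 0.61, -0.22, -0.33 and -0.23 from 30 min to 15 d. JAM3 shares 85 exon bases (4.64%) with AT4G16440, and COI1 shares 2 bases with AT2G39930, also on the opposite strand.

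MYC3, an activator that acts beside MYC2, moved less. In infested libraries at 30 min it had 76.8, 73.2, 75.3 and 78.2 CPM, against 68.4, 64.3, 61.1 and 57.5 CPM in control libraries. The groups did not overlap, and the log2 fold change was 0.27 (SE 0.09, adjusted p = 0.018). Leaving out control replicate 4 gave an adjusted p of 0.079, leaving out infested replicate 4 gave 0.053, and with library totals as the only scaling it was 0.085. At 24 h infested libraries had 87.8, 83.7, 77.6 and 89.1 CPM and control libraries 53.8, 56.6, 56.2 and 55.0 CPM. The control libraries lay close together and far below the infested ones, with a log2 fold change of 0.61 (SE 0.09, adjusted p = 5.31e-07). At 4 d MYC3 had 75.1, 72.1, 71.0 and 78.6 CPM in infested libraries, against 59.6, 53.0, 55.0 and 62.9 CPM in control libraries. These did not overlap either, and the log2 fold change was 0.37 (adjusted p = 0.0020). From 7 d on the means were 63.4, 61.1 and 70.9 CPM in infested plants and 56.7, 58.0 and 66.6 CPM in control plants, with overlap and log2 fold changes of 0.16, 0.07 and 0.09, none of them called.

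MYC4, the activator closest in role to MYC3, took another course. At 30 min infested libraries had 45.7, 43.2, 37.8 and 32.6 CPM, and control libraries 53.0, 60.8, 48.7 and 41.0 CPM. The ranges overlapped, and the log2 fold change of -0.35 (SE 0.13) had adjusted p = 0.04996, just under the threshold. When any of control replicates 1 to 3 or infested replicates 3 and 4 was left out, adjusted p lay between 0.063 and 0.22, and with the 8 libraries of 30 min alone it was 0.092. RNA came from whole aerial parts, so here and below fewer cells of a type and less RNA per cell cannot be told apart. No later time gave a call for MYC4: the log2 fold changes were -0.16 at 24 h, -0.01 at 4 d, 0.28 at 7 d, 0.06 at 12 d and 0.17 at 15 d. Without control replicate 4 the value of 4 d was 0.06 (adjusted p = 0.87), above 0. Its means over the 6 times were 39.8, 35.5, 40.9, 45.1, 58.4 and 71.4 CPM in infested plants and 50.9, 39.7, 41.1, 37.2, 55.9 and 63.3 CPM in control plants. In both series the highest mean was that of 15 d, unlike MYC2, whose infested mean at 15 d was 109 ± 20.6 CPM against 442 ± 83.8 CPM at 24 h.

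JAM1, a repressor that competes with the MYC factors, followed MYC2 most closely. At 30 min infested libraries had 94.9, 86.5, 81.4 and 84.2 CPM, against 34.4, 44.3, 34.0 and 20.1 CPM in control libraries. Every infested library was above every control library, with a log2 fold change of 1.38 (SE 0.23, adjusted p = 1.50e-05). At 24 h the infested libraries had 126, 97.2, 84.7 and 136 CPM and the control libraries 23.1, 43.7, 31.1 and 27.2 CPM. Within the infested group replicates 1 and 4 were the high ones, as for MYC2, and in the control group replicate 2. This amounted to a log2 fold change of 1.83 (SE 0.24, adjusted p = 1.40e-07). At 4 d JAM1 had 88.8, 62.9, 80.0 and 80.1 CPM in infested libraries and 41.7, 28.4, 30.21 and 81.9 CPM in control libraries. The control library of replicate 4 lay within the infested range and the other 3 below it. The log2 fold change was 0.77 (SE 0.23, adjusted p = 0.016), and 1.22 (adjusted p = 2.50e-05) without that library. The call was lost on leaving out any of control replicates 2 and 3 and infested replicate 1 (adjusted p from 0.053 to 0.092) and with the 8 libraries of 4 d alone (0.19).

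Later the log2 fold changes of JAM1 lay below 0, with a call at 15 d alone. At 7 d infested libraries had 41.5, 42.8, 47.3 and 39.6 CPM, against 74.6, 45.3, 44.1 and 49.3 CPM in control libraries, with overlap and a log2 fold change of -0.32 (adjusted p = 0.42). At 12 d infested libraries had 26.0, 29.3, 30.0 and 26.0 CPM and control libraries 38.3, 43.5, 34.1 and 32.0 CPM. The infested libraries were all below the control libraries, while the log2 fold change of -0.41 had adjusted p = 0.25. At 15 d JAM1 had 32.0, 26.0, 32.1 and 35.6 CPM in infested libraries, against 57.3, 40.7, 49.8 and 51.7 CPM in control libraries. The groups did not overlap, and the lower level of JAM1 in infested plants gave a log2 fold change of -0.66 (SE 0.23, adjusted p = 0.040). This call was lost without any one of control replicates 1, 3 and 4 and infested replicates 1, 2 and 3, with adjusted p-values from 0.051 to 0.14, and with no filter (0.068). All 4 leaf markers were higher in infested plants at 15 d, and their part in this result was not tested.

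JAM2, the repressor with the lowest level per kb, had 44.0, 38.1, 41.8 and 37.0 CPM in infested libraries at 30 min and 22.8, 33.8, 25.6 and 23.4 CPM in control libraries. Control replicate 2 stood nearest to the infested libraries, without reaching them. JAM2 was higher, at a log2 fold change of 0.61 (SE 0.11, adjusted p = 3.16e-05). At 24 h it had 31.5, 27.9, 27.0 and 34.2 CPM in infested and 21.7, 22.1, 19.5 and 21.2 CPM in control libraries, and at 4 d 26.1, 24.9, 28.7 and 26.5 CPM in infested and 16.1, 17.5, 15.38 and 19.9 CPM in control libraries. Neither time showed overlap, and the log2 fold changes were 0.51 (adjusted p = 4.36e-04) and 0.62 (adjusted p = 4.90e-05). At 7 d the infested libraries had 16.4, 21.2, 22.3 and 19.2 CPM and the control libraries 16.4, 13.8, 15.41 and 16.4 CPM, and the lowest infested library met the control range. JAM2 was higher, at a log2 fold change of 0.35 (adjusted p = 0.031), a call lost on leaving out any of control replicates 2 and 3 and infested replicates 2 and 3 (adjusted p from 0.073 to 0.13), with library totals as the only scaling (0.080) and with the 8 libraries of 7 d alone (0.073). At 12 d and 15 d the means were 17.6 and 16.9 CPM in infested plants and 14.4 and 15.17 CPM in control plants, with log2 fold changes of 0.28 and 0.15, neither called. Unlike MYC2 and JAM1, JAM2 had its highest group mean at 30 min, 40.2 ± 3.24 CPM in infested plants.

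JAM3, the third repressor, had 32.2, 34.8, 33.0 and 32.5 CPM in infested libraries at 30 min, against 28.0, 31.1, 29.9 and 25.9 CPM in control libraries. There was no overlap, and the log2 fold change was 0.21 (SE 0.07, adjusted p = 0.017). When control replicate 4 was left out adjusted p was 0.10, and without infested replicate 2 it was 0.062. With library totals as the only scaling it was 0.096, and with no filter 0.066. At 24 h infested libraries had 29.9, 30.17, 28.0 and 29.4 CPM and control libraries 22.3, 26.4, 23.7 and 24.6 CPM, and at 4 d infested libraries had 31.1, 30.7, 26.4 and 29.6 CPM and control libraries 21.7, 22.2, 22.8 and 21.1 CPM. At both times the groups stood apart, by log2 fold changes of 0.28 (adjusted p = 0.0013) and 0.42 (adjusted p = 3.73e-06). From 7 d on the means were 26.0, 27.7 and 31.5 CPM in infested plants and 24.8, 26.0 and 29.5 CPM in control plants. The log2 fold changes of these times were 0.07, 0.09 and 0.09, none of them called, although at 12 d all infested libraries lay above all control libraries.

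COI1, the JA receptor, moved least. At 30 min and 24 h its means were 41.6 ± 4.32 and 34.2 ± 2.50 CPM in infested plants and 37.3 ± 1.68 and 36.9 ± 3.16 CPM in control plants. The ranges overlapped at both times, and the log2 fold changes were 0.16 (adjusted p = 0.16) and -0.11 (adjusted p = 0.36). At 4 d COI1 had 33.8, 37.7, 29.8 and 35.5 CPM in infested libraries, against 41.7, 38.2, 39.1 and 40.4 CPM in control libraries. All infested libraries were below all control libraries, and the log2 fold change was -0.22 (SE 0.08, adjusted p = 0.047). That call was lost in 8 of 15 alternatives, 7 of which left out 1 library, with adjusted p = 0.090 without control replicate 4 and up to 0.22 without infested replicate 3. At 7 d infested libraries had 35.9, 38.4, 38.7 and 36.4 CPM and control libraries 44.3, 45.5, 43.5 and 42.8 CPM. These also did not overlap, and the log2 fold change was -0.24 (SE 0.08, adjusted p = 0.036). It was no longer called without any one of control replicates 1, 2 and 3 and infested replicates 1, 3 and 4, with adjusted p-values from 0.0504 to 0.10. At 12 d and 15 d the log2 fold changes were -0.04 and -0.11, with approximate 95% intervals of -0.20 to 0.11 and -0.26 to 0.05.

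NINJA, the adaptor of the JAZ repressors, had 86.2, 79.6, 70.1 and 73.9 CPM in infested libraries at 30 min and 66.4, 72.2, 56.3 and 56.7 CPM in control libraries. Control replicate 2 lay above infested replicate 3, and the log2 fold change was 0.30 (SE 0.08, adjusted p = 0.0033). At 24 h infested libraries had 90.5, 77.2, 78.3 and 83.3 CPM, against 48.2, 55.4, 61.6 and 47.7 CPM in control libraries. The groups were clearly apart, with a log2 fold change of 0.63 (SE 0.08, adjusted p = 3.21e-08). At 4 d infested libraries had 70.2, 70.4, 75.7 and 72.7 CPM and control libraries 51.7, 46.9, 47.3 and 53.2 CPM, again without overlap and with a log2 fold change of 0.54 (adjusted p = 1.23e-06). At 7 d infested libraries had 58.9, 61.4, 61.1 and 58.8 CPM and control libraries 53.2, 49.4, 52.7 and 47.6 CPM. NINJA was the only one of the 8 genes whose infested libraries were all above the control libraries at this time. The log2 fold change was 0.24 (adjusted p = 0.031), and the call was lost on leaving out any of control replicates 2 and 4 and infested replicates 2 and 3 (adjusted p from 0.069 to 0.092). It was also lost with library totals as the only scaling (0.11), with no filter (0.051) and with the 8 libraries of 7 d alone (0.078). At 12 d and 15 d the log2 fold changes were 0.04 and 0.11, with overlapping libraries.

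**Figure D2:**
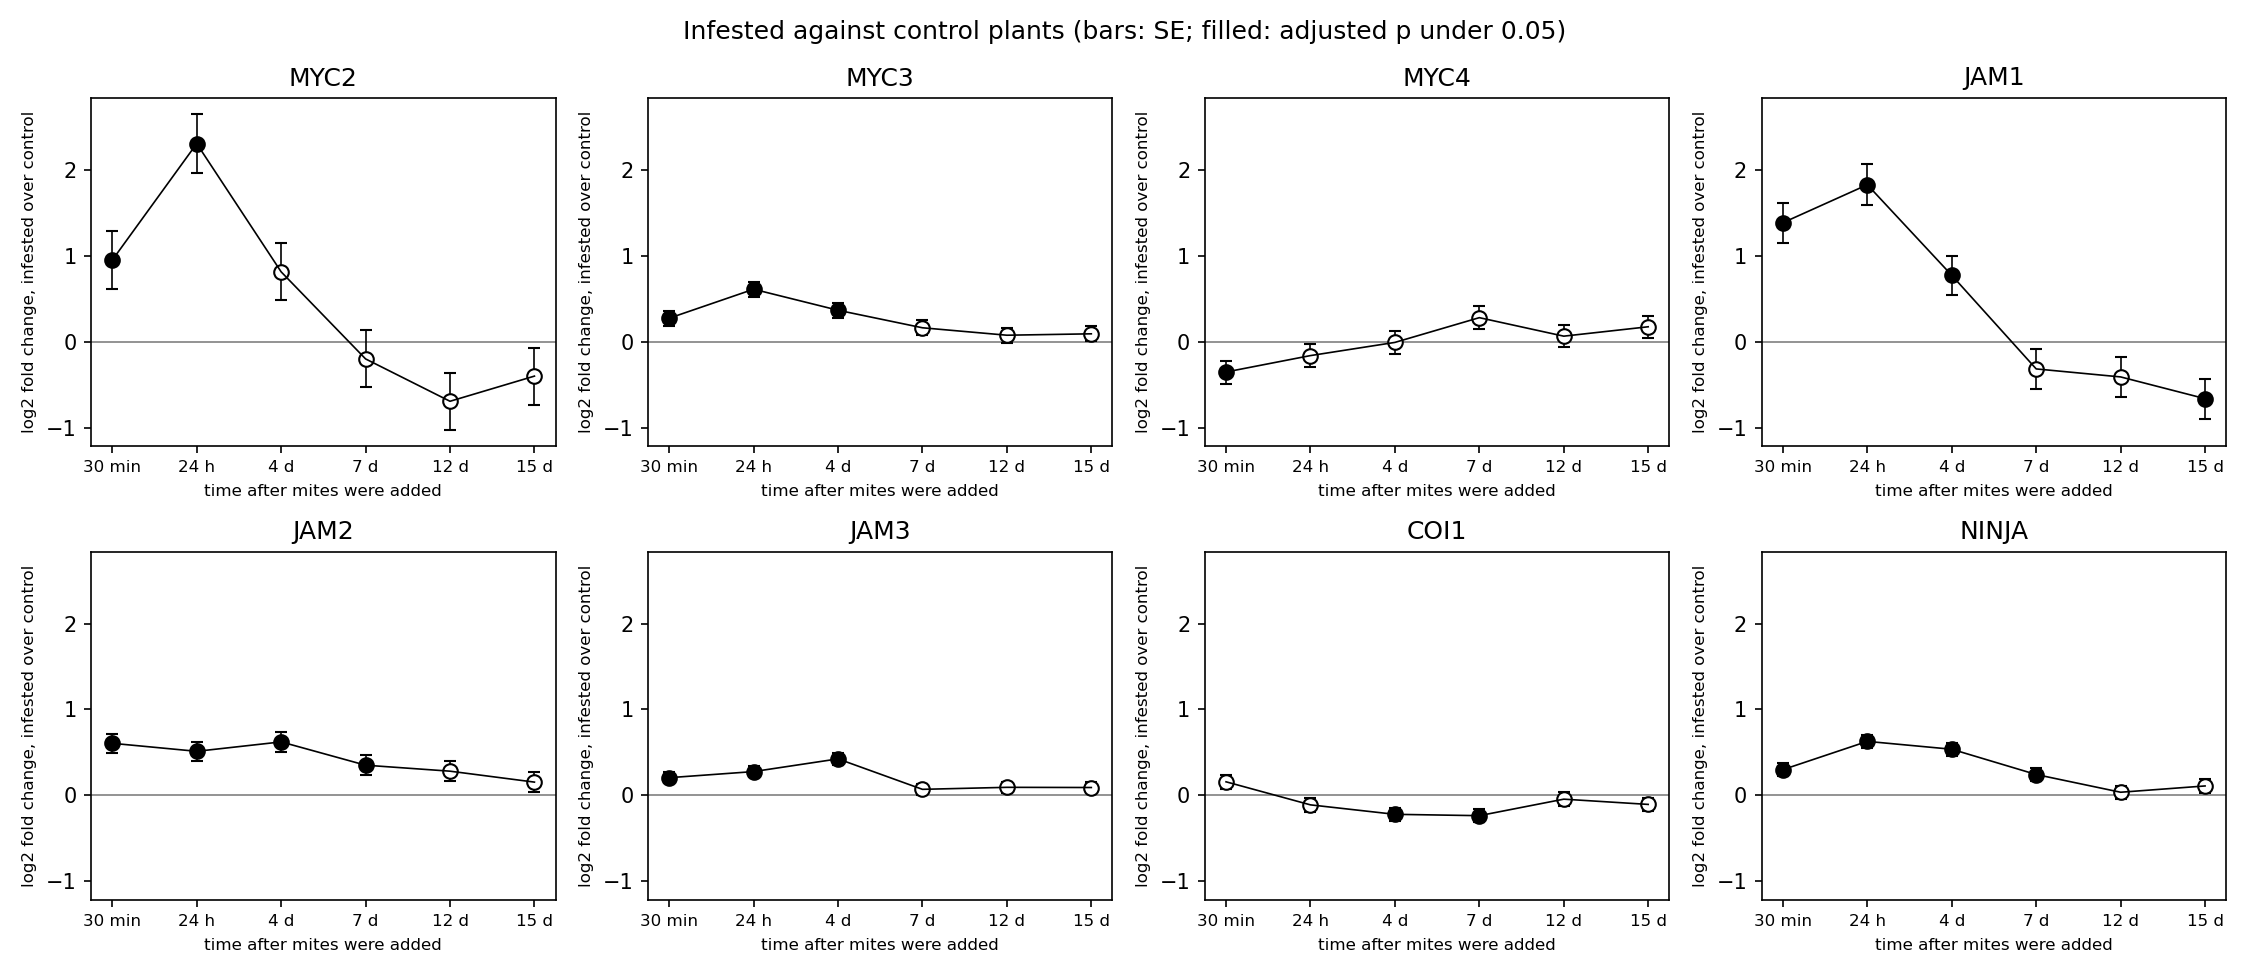
Log2 fold change of each gene in infested over control plants against the time after mites were added, with the SE as bars. Filled points have adjusted p under 0.05. MYC2 and JAM1 reach 2.31 and 1.83 at 24 h and lie below 0 from 7 d on, while JAM2 stays above 0 at all 6 times.

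Counted by time, 6 of the 8 genes were higher and 1 lower at 30 min, where 23% of all genes tested were called (13.3% higher and 9.71% lower). At 24 h 6 were higher and 0 lower, against 13% and 10.2% of all genes (23.2% called in all). At 4 d 5 were higher and 1 lower, against 8.68% and 7.68% of all genes (16.4% in all). At 7 d 2 were higher and 1 lower, against 6.16% and 7.59% of all genes (13.7% in all). At 12 d edgeR and DESeq2 called 0 of the 8, although edgeR called 16.1% of all genes (7.78% higher and 8.3% lower), and 2 of the 8 had an unadjusted p under 0.05. At 15 d 1 was lower and 0 higher, where 18.4% of all genes were called (9.68% lower and 8.67% higher). The median log2 fold change of the 8 genes was 0.29, 0.56, 0.48, 0.12, 0.05 and 0.09 over the 6 times, and that of all genes lay between -0.02 and 0.01. The genes whose infested libraries all lay above all control libraries numbered 5 at 30 min, 6 at 24 h, 4 at 4 d, 1 at 7 d and at 12 d, and 0 at 15 d. Among all genes the share so separated was 14.9%, 13.9%, 12.5%, 7.4%, 8.26% and 6.39% at these times. The reverse, all infested below all control libraries, held for 0 of the 8 at 30 min and 24 h, for COI1 at 4 d and 7 d, for MYC2 and JAM1 at 12 d and for JAM1 at 15 d. Among all genes that share was 11.6%, 13%, 13.2%, 7.49%, 8.53% and 7.52% at the 6 times.

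The effect of infestation changed over the 6 times for 6 of the 8 genes, by the interaction test over all times, which called 41.1% of all genes. The adjusted p was 1.63e-05 for MYC2, 0.0024 for MYC3, 3.15e-08 for JAM1, 0.0075 for JAM3, 0.035 for COI1 and 5.38e-05 for NINJA. It was 0.053 for MYC4 and 0.062 for JAM2, and MYC4 was called with no filter (0.039) and by DESeq2 (0.035) and JAM2 with library totals (0.043). The call of COI1 was lost with no filter (0.052). Between neighbouring times few changes were called. For NINJA the effect at 24 h was larger than at 30 min by 0.33 on the log2 scale (adjusted p = 0.045, where 11% of all genes were called), a call lost with the replicate number as a block (0.052). For JAM3 the effect at 7 d was smaller than at 4 d, with a difference of -0.35 (adjusted p = 0.022, where 3.57% of all genes were called). For MYC2 the effect at 24 h was larger than at 30 min by 1.36 (adjusted p = 0.057). Its effect at 4 d differed from that at 24 h by -1.49 (adjusted p = 0.074), a step at which 0 of the 8 genes and 3.36% of all genes were called. DESeq2 called both steps of MYC2, with adjusted p-values of 0.036 and 0.041. For JAM1 the effect at 7 d differed from that at 4 d by -1.09 (adjusted p = 0.051), and 5 of 6 alternatives called it, with adjusted p-values from 0.032 to 0.048. No change from 7 d to 12 d or from 12 d to 15 d was called for the 8 genes, where 2% and 0.706% of all genes were, and 0 of the 8 had an unadjusted p under 0.05.

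The level of each gene also changed with time inside each series, as it did for most genes tested. In infested plants all 8 genes were called over the 6 times, where 81.7% of all genes were, and in control plants all 8, where 85.3% were. In control plants JAM2 had its mean of 30 min (26.4 CPM) above all later ones (14.4 to 21.1 CPM), and MYC4 its 3 highest means at 15 d, 12 d and 30 min. In the test over the 6 times MYC2 had adjusted p = 3.26e-08 in infested and 0.035 in control plants. MYC3 had 4.18e-05 in infested and 0.037 in control plants. The control values of these 2 genes were the largest of the 8, and the call of MYC3 in control plants was lost with no filter (0.16). Ordered by mean over the 12 groups, infested plants at 24 h, 4 d and 30 min took the first 3 places for MYC2, and the same 3 groups in another order for MYC3, JAM1, JAM2 and NINJA. Infested plants at 12 d had the lowest mean of MYC2, 77.3 ± 3.34 CPM, and of JAM1, 27.8 ± 2.14 CPM. Neighbouring groups in these orders overlapped in their libraries, with 4 exceptions. For JAM2 the infested libraries of 30 min lay above those of 24 h, and the control libraries of 30 min above those of 24 h. For JAM3 the infested libraries of 12 d lay above those of 7 d, and for NINJA the infested libraries of 4 d above those of 15 d.

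The make-up of the activator and repressor transcripts differed between infested and control plants at some of the times. MYC2 made up 67.2 ± 2.47% of the summed MYC2, MYC3 and MYC4 level per kb in infested plants at 30 min and 49.9 ± 10.1% in control plants. At 24 h its share was 73.4 ± 3.11% in infested and 39.3 ± 12.0% in control plants, and at both times the libraries did not overlap. At 4 d, 7 d and 12 d the libraries overlapped in this share. Its means at these times were 69.1, 52.1 and 32.8% in infested and 55.3, 57.8 and 44.95% in control plants. At 15 d the share of MYC2 was 36.2 ± 2.49% in infested and 45.1 ± 4.56% in control plants, with all infested libraries below all control libraries. JAM1 made up 62.5 ± 3.91% of the summed JAM level at 24 h in infested plants and 37.6 ± 5.44% in control plants. At 4 d the libraries overlapped, with mean JAM1 shares of 55.4% in infested and 48.4% in control plants. At 7 d, 12 d and 15 d its share was 45.2, 34.8 and 35.7% in infested plants and 52.8, 43.9 and 48.7% in control plants, and at each of these times the infested libraries lay below the control libraries. In infested plants JAM1 thus exceeded JAM2 and JAM3 together at 30 min, 24 h and 4 d, and was below their sum from 7 d on.

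The summed level of the 3 MYC genes exceeded that of the 3 JAM genes in every library. The log2 ratio of the sums per kb was 1.05 ± 0.11 in infested plants at 30 min and 1.27 ± 0.24 in control plants, with overlap. At 24 h it was 1.36, 1.36, 1.31 and 1.27 in infested libraries and 0.81, 1.08, 1.06 and 0.79 in control libraries. Here activators were further above repressors in every infested library, by a mean difference of 0.39. At 12 d the ratio was 0.98, 1.16, 1.14 and 1.205 in infested libraries, against 1.32, 1.24, 1.21 and 1.36 in control libraries, all of them higher. At 4 d, 7 d and 15 d the ratios overlapped, with mean differences of 0.01, 0.05 and 0.13. Being sums over chosen genes, these values carry no test. As it is not known how reads shared by MYC2 and AT1G32630 were assigned, the same limit holds for the MYC2 share and for the ratio.

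**Figure D3:**
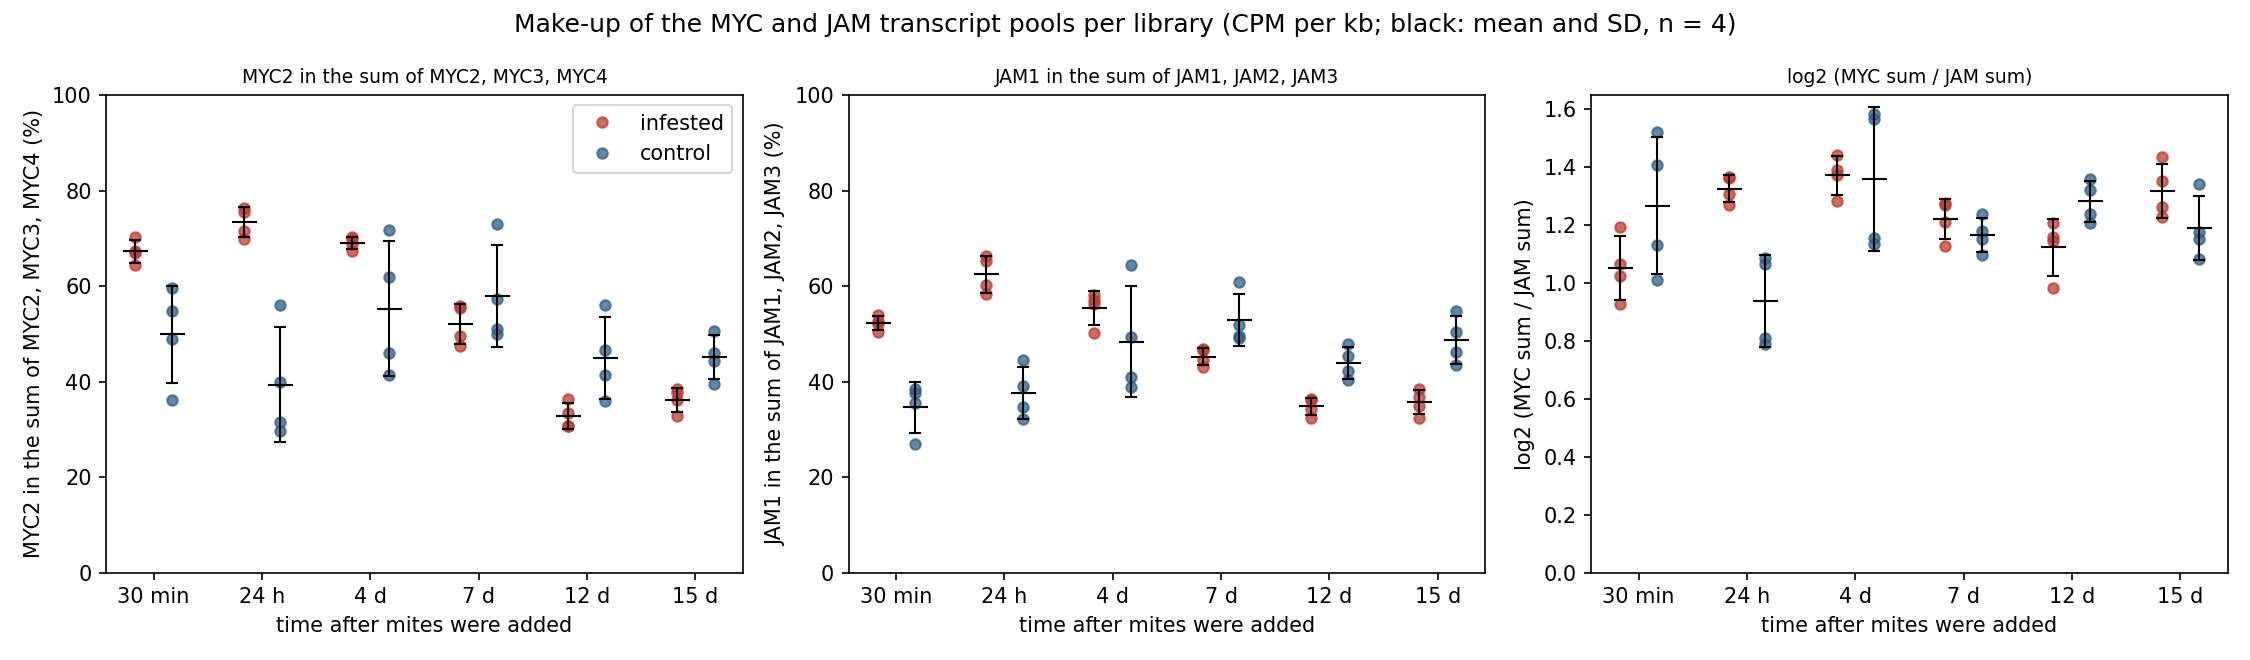
Share of MYC2 in the summed MYC level, share of JAM1 in the summed JAM level, and log2 ratio of the MYC sum to the JAM sum, all from CPM per kb of exon, in every library. Points are libraries (red infested, blue control) and black bars are the mean and SD of 4 libraries. The share of MYC2 at 24 h is 69.9 to 76.4% in infested and 29.7 to 56.1% in control libraries, and the ratio at 24 h is higher in all infested libraries.

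Control libraries of one group differed most for MYC2 and JAM1, and infested libraries for MYC2 and MYC4. The coefficient of variation of MYC2 had a median of 14.4% over the 6 infested groups and 40.3% over the 6 control groups. For JAM1 the medians were 10.2% in infested and 27.7% in control groups, for MYC4 12.65% and 13.65%, and for COI1 8.53% and 5.81%. JAM1 had its highest library in the same one as MYC2 in 8 of 12 groups and its lowest in the same one in 11 of 12. NINJA shared the highest library with MYC2 in 7 groups, JAM2 in 6, MYC4 in 5, MYC3 in 4, JAM3 in 3 and COI1 in 2. In the 6 control groups JAM1 and NINJA each shared it in 5. The lowest library was shared by MYC3 in 6 groups and by MYC4, JAM2, JAM3, COI1 and NINJA in 3 to 5. Libraries are shared by all genes, so these counts describe the pools, and no test was made of them.

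Likeness of pattern was measured over the 12 group means of log2 CPM, each gene centred on its own mean, as the root mean square difference from each of 17382 genes whose log2 CPM averaged 1 or more. The gene nearest to MYC2 was JAM1, at 0.245 on the log2 scale, where the MYC2 pattern itself has a root mean square of 0.753. The next were AT1G32630 (0.262), the gene on its opposite strand, and AT1G76070 (0.301). JAM1 was nearest to AT5G54170 (0.195), AT1G32630 (0.211) and GID1B (0.220), a gibberellin receptor. MYC3 and NINJA were near each other, at 0.0827, and both were near AXS2 and ARI8. ARI8 lay at 0.0528 and AXS2 at 0.0779 from MYC3, and AXS2 at 0.0720 and ARI8 at 0.0825 from NINJA. The patterns of MYC3 and NINJA are rather flat, with root mean squares of 0.186 and 0.216, which keeps such distances small. MYC4 was nearest to FLA17 (0.0843), a fasciclin-like arabinogalactan protein, AT3G54250 (0.104) and AT1G49560 (0.113), and JAM2 to ABCG24 (0.136), Tudor1 (0.142) and ZPR3 (0.162). JAM3 was nearest to BLOS2 (0.0743), AT5G11730 (0.0774) and ALDH10A8 (0.0819), and COI1 to AT2G17350 (0.0673), AT5G23710 (0.0675) and CDC2 (0.0688), whose distances are small because these patterns are flat. Of the 28 pairs among the 8 genes, MYC2 and MYC4 were the farthest apart, at 0.972. MYC2 lay at 0.626 from MYC3, farther than from JAM1.

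The JAZ repressors, the proteins that COI1 binds and that hold back the MYC factors, were higher in infested plants for 10 of 13 genes at 30 min, 11 at 24 h and 9 at 4 d, with none lower. Their median log2 fold changes at these times were 1.56, 2.27 and 1.43, against medians of all genes between -0.02 and 0.00. Of all genes tested, 13.3, 13, 8.68, 6.16, 7.78 and 8.67% were called higher from 30 min to 15 d. The shares called lower were 9.71, 10.2, 7.68, 7.59, 8.3 and 9.68%. These shares are to be set beside the counts of each list here and below. Most lists below are short, so single calls in them are not read as a result of the list. JAZ1 and JAZ8 led at 30 min, with JAZ1 at 331 ± 29.3 CPM in infested and 34.3 ± 13.8 CPM in control plants (log2 fold change 3.27, adjusted p = 2.15e-05) and JAZ8 at a log2 fold change of 3.59 (adjusted p = 1.02e-04). At 24 h JAZ5 and JAZ10 led, by log2 fold changes of 3.39 and 3.69, and at 4 d JAZ10 and JAZ13, by 3.07 and 2.21. At 7 d and 12 d no JAZ gene was called by edgeR. At 15 d JAZ4 and JAZ7 were lower, with JAZ7 at 1.90 ± 0.53 CPM in infested and 9.81 ± 4.58 CPM in control plants (log2 fold change -2.36, adjusted p = 0.018). JAM1 was lower at the same time.

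Genes of JA synthesis were higher for 10, 13, 9 and 5 of 13 genes at 30 min, 24 h, 4 d and 7 d, with none lower. At 12 d 0 were higher and 1 lower, and at 15 d 1 was higher and none lower. The allene oxide cyclase gene AOC3 and the lipoxygenase gene LOX4 led at 30 min, by log2 fold changes of 3.82 and 3.29. AOC1 and AOC3 led at 24 h, by 3.35 and 3.54, and AOC1 and AOC2 at 4 d, by 3.09 and 2.27, with the reservation that reads of these near-identical genes may have been split or lost. At 7 d, when MYC2 showed no call, AOC1 and LOX2 were still higher by 2.58 and 2.13, and LOX2 was the gene higher at 15 d, by 1.30. LOX4 was the one lower at 12 d, at a log2 fold change of -1.91 (adjusted p = 0.0095).

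Enzymes that break down or store JA were higher for 5, 10, 10 and 4 of 10 genes at the first 4 times, with none lower. At 12 d none was called by edgeR, and at 15 d CYP94C1, an oxidase of the active hormone, was lower, at a log2 fold change of -1.14 (adjusted p = 0.046). CYP94C1 and JOX4, a JA oxidase, led at 30 min, by 2.89 and 2.91. CYP94B3 and JOX1 led at 24 h, by 4.39 and 3.99, and JOX1 and JOX3 at 4 d, by 5.60 and 4.29, and at 7 d, by 2.54 and 4.37. JOX1 was at 0 counts in all infested libraries of 30 min, and its control mean stayed below 1 CPM at 24 h, 4 d and 7 d.

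Of 6 known targets of the MYC branch, 4 were higher at 30 min, 6 at 24 h and 4 at 4 d, and 1 was lower at 4 d. TAT3, a tyrosine aminotransferase, had 43.2 ± 16.2 CPM in infested and 6.80 ± 6.11 CPM in control plants at 30 min and 659 ± 68.4 against 30.7 ± 44.3 CPM at 24 h, log2 fold changes of 2.65 and 4.42. The transcription factor genes ANAC055 at 30 min and ANAC019 at 24 h were higher by 3.04 and 3.72. At 7 d VSP1, a storage protein of the wound response, was higher (1048 ± 261 CPM in infested and 111 ± 15.6 CPM in control plants, adjusted p = 7.57e-04), and ANAC072 was lower by a log2 fold change of -2.96. These were 2 of 4 calls of the list at that time, 2 higher and 2 lower. At 12 d ANAC019 and ANAC072 were lower, among 3 of 6 genes, by -1.56 and -2.22, and at 15 d ANAC072 alone was lower, by -1.41. VSP1 at 30 min gave 190 CPM in infested and 225 CPM in control plants and no call (adjusted p = 0.86), while MYC2 was already higher; this gene is named outside the rule, for its time course.

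The ethylene-linked ERF branch, which MYC2 is known to oppose, had 3 of 5 genes higher at 30 min, then 2 at each time up to 12 d and 0 at 15 d, with 1 lower at 24 h and at 4 d. ORA59 and ERF1, transcription factors of that branch, were higher by 1.19 and 2.30 at 30 min and by 1.44 and 3.19 at 24 h. ORA59 was also higher at 4 d, 7 d and 12 d, by 1.96, 4.06 and 2.82. The defensin PDF1.2 had 51.0 ± 22.3 CPM in infested and 7.36 ± 13.7 CPM in control plants at 4 d, and 109 ± 45.7 against 0.348 ± 0.368 CPM at 7 d. MYC2 gave no call at either time, and a link of PDF1.2 to MYC2 was not tested. Reads of PDF1.2 may be shared with near-identical defensins. EIL1 was higher at 12 d by 0.27.

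The MYB factors that work with the MYC factors on glucosinolate genes gave calls in both directions. Of 5 tested, 1 was higher at 30 min, 2 at 24 h, 1 at 4 d and 3 at 15 d, and 1, 2, 1, 1 and 1 were lower from 24 h to 15 d. MYB34, a regulator of indole glucosinolates, was higher at 24 h, 4 d and 15 d, by 1.61, 1.44 and 1.12. MYB51, another regulator of that group, was higher at 30 min by 1.26 and lower at 4 d and at all later times, at log2 fold changes of -1.77, -1.46, -0.96 and -0.98. MYB76 was higher at 24 h by 0.73, and MYB122 was too low to be tested. Of the 2 close bHLH relatives, MYC5 was lower at 30 min, with 2.31 ± 0.76 CPM in infested and 5.34 ± 1.80 CPM in control plants (log2 fold change -1.21, adjusted p = 2.95e-04), and higher at 15 d by 1.19. The other, bHLH14, gave no call at any time.

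Partners of COI1 in its ubiquitin ligase, like COI1 itself, changed little. At 30 min 3 of 5 were higher, ASK1 and SGT1B by 0.19 and 0.21 and the cullin CUL1 by 0.16, and none was called later by edgeR. CUL1 is named here to complete the 3 calls. Among the 4 auxin receptors related to COI1, 1 was lower at 30 min, 2 at 24 h and 1 at 4 d, and 1, 1 and 2 were higher at 7 d, 12 d and 15 d. AFB1 was lower by -0.22 at 30 min and -0.67 at 24 h and higher by 0.27 at 7 d. AFB2 was lower by -0.24 at 24 h and -0.21 at 4 d and higher by 0.26 at 15 d. TIR1 was higher by 0.21 at 12 d and 0.22 at 15 d.

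On the side of NINJA, the 7 corepressors and histone deacetylases gave 1 higher and 1 lower at 30 min, 1 lower at 24 h and at 7 d, and no call at the other times. A count of 1 in a list of 7 is near the shares of all genes given above. TPR3 was higher by 0.77 and TPR1 lower by -0.33 at 30 min, and TPR4 was lower by -0.24 at 24 h and -0.30 at 7 d. TPL, or TOPLESS, the corepressor after which the group is named, gave log2 fold changes from -0.20 to 0.02 and no call, and is named for its role. MED25 and MED16, Mediator subunits of which MED25 binds MYC2, were not called at any time. The AFP proteins, relatives of NINJA known from abscisic acid signalling, had 1 of 4 higher at 30 min and 2, 3, 2 and 1 lower from 4 d to 15 d. AFP4 was higher at 30 min by 1.43 and lower at 4 d by -0.76, at 7 d by -1.03 (adjusted p = 8.38e-05) and at 15 d by -0.61. AFP2 was lower at 4 d by -0.34, and AFP1 and AFP3 were lower at 7 d (-2.32 and -1.53) and 12 d (-1.78 and -1.36), times at which NINJA gave 0.24 and 0.04.

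**Figure D4:**
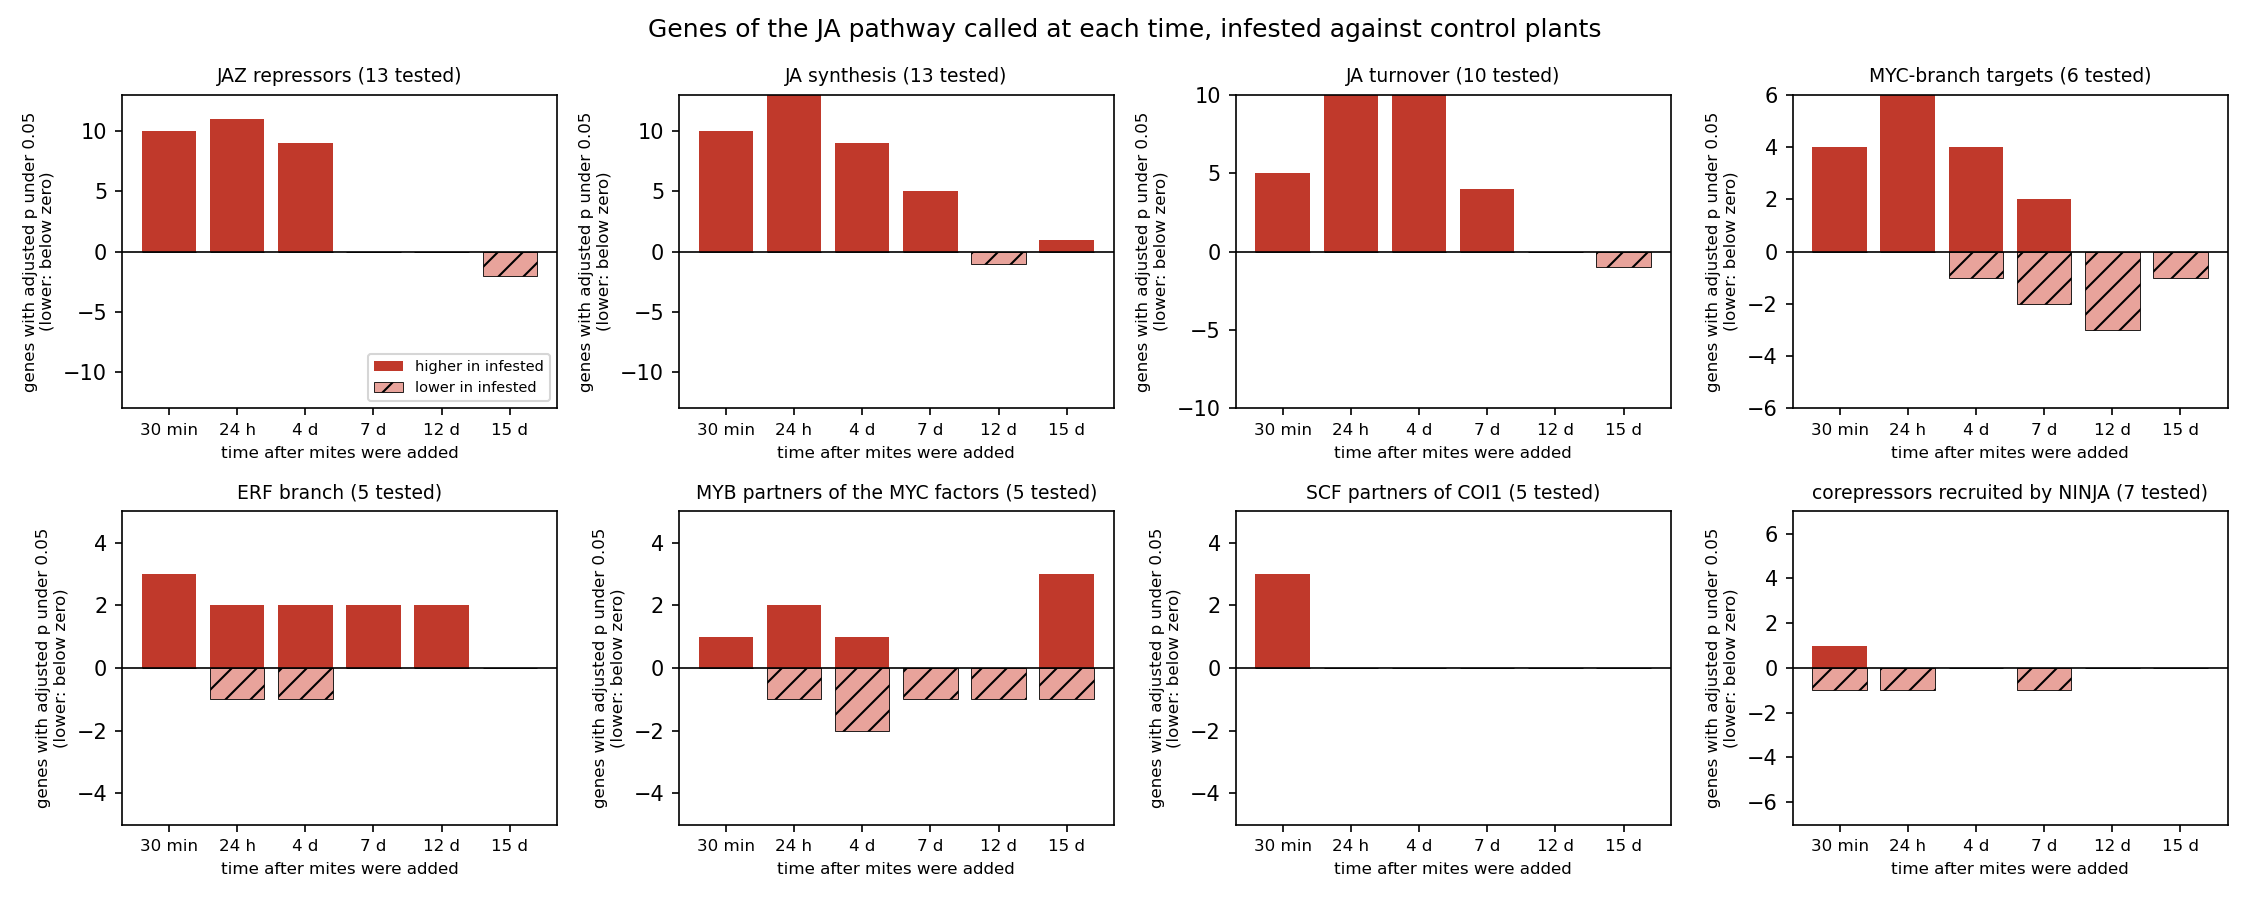
Number of genes called higher (above 0, solid) and lower (below 0, hatched) in infested plants at each time, for 8 groups of genes around the MYC and JAM factors, COI1 and NINJA. JAZ repressors show 10, 11 and 9 of 13 genes higher at the first 3 times and 2 lower at 15 d, and the partners of COI1 show calls at 30 min alone. Of all genes tested, 13.3, 13 and 8.68% were called higher at the first 3 times and 9.68% lower at 15 d.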

How the data were processed

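Values were raw read counts per gene, as deposited by the authors. Per the submitters' processing notes the tools included HISAT2, featureCounts, fastp and DESeq2, and the build was TAIR10. The sources used here give no versions, settings or annotation. Per the labels' protocols, total RNA went into NEBNext Ultra libraries read as pairs of 150 bases.

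Counts were fitted with edgeR 4.0.16 (R 4.3.3). The filter filterByExpr kept 22252 genes, scaling was by the trimmed mean of M values, and 1 model over all 12 groups and 48 libraries used robust quasi-likelihood dispersion. Tests were two-sided and adjusted over all genes by Benjamini-Hochberg, with a threshold of 0.05. No library was dropped. Levels are scaled CPM. RefSeq TAIR10.1 gave symbols (32548 features matched by locus name) and exon lengths; no coordinates are given, as the builds differ in name.

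Replicates differed beyond sampling noise in all 72 pairs. Alternatives were other scalings and filters, DESeq2 1.42.0, 1 time alone, a replicate block and leaving out each library. Ratios per kb were added after seeing the data.

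The 8 genes and the lists were chosen with earlier results of these data known. List genes named are the 2 called genes with the largest change of a list at a time, and the 3 genes most like each of the 8. Intervals of fold changes are approximate 95% intervals, built from the SE and a normal quantile. They are somewhat narrower than the test implies, and no call rests on them.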

Additional observations from a re-analysis of the deposited data

Results flagged for a closer look

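In each of 96 gene and group combinations, the highest and the lowest of 4 libraries were compared with the rest, a comparison that chance alone flags in about 1 of 20 groups. The control library of replicate 1 at 7 d stood apart for JAM1, with 74.6 CPM against 44.1 to 49.3 CPM in the other 3. The control library of replicate 4 at 15 d stood apart for JAM3, with 34.6 CPM against 27.2 to 28.2 CPM in the other 3.

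The effect of infestation differed between the 6 times for 6 of the 8 genes, by the interaction test of edgeR over all times. The adjusted p-values were 1.63e-05 for MYC2, 0.00242 for MYC3, 3.15e-08 for JAM1, 0.00751 for JAM3, 0.0345 for COI1 and 5.38e-05 for NINJA. The log2 fold changes of MYC2 and JAM1 were above 0 up to 4 d and below 0 from 7 d on. Of those below 0 only JAM1 at 15 d was called, and MYC2 was not called at 4 d either. Without control replicate 1 the value of MYC2 at 7 d was above 0. The effect for COI1 was 0.16 at 30 min, not called, and -0.24 at 7 d on the log2 scale.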

How the results depend on the processing

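Of 112 results on single genes (each of the 8 genes in each test), 80 kept their direction and their side of the threshold in every alternative computed for them. All 6 calls of 24 h are among them, as are those of JAM1, JAM2 and NINJA at 30 min and of MYC3, JAM2, JAM3 and NINJA at 4 d. Leaving out 1 library in turn gave 4 to 6 called of the 8 genes at 30 min (7 with all libraries, 4 without control replicate 4 or infested replicate 4), 0 to 2 at 7 d and 0 to 1 at 15 d. At 7 d 3 were called, 1 with library totals as scaling or with the 8 libraries alone, and 5 with the replicate block. At 12 d the 8 libraries alone called 2, MYC2 and JAM1, both lower, and at 15 d no filter left 0. For the change of effect, DESeq2 called 2 at 24 h against 30 min and 1 at 4 d against 24 h. The edgeR fit of all libraries called 11% and 3.36% of all genes at these steps. At 7 d against 4 d, 2 were called with size factors, library totals, the stricter filter, the replicate block and DESeq2. The edgeR fit called 3.57% of all genes at that step. Over all genes, calls numbered 1979 at 7 d, 2042 at 12 d and 1148 at 15 d with the 8 libraries alone, and 717 (12 d against 7 d) and 354 (15 d against 12 d) with DESeq2. Leaving out 1 library gave 1997 to 3876 calls at 7 d, 2381 to 3549 at 12 d and 2103 to 5292 at 15 d. The cause was not tested.

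Replicate numbers were not used as pairs outside the replicate block. Of 24 same-numbered pairs 10 had deviations correlated above 0.1, with a median correlation of 0.0718 and a range of -0.433 to 0.527. At 4 d the correlations lay between 0.0431 and 0.164, and at 7 d between 0.0867 and 0.527. With the replicate block 7, 6, 7, 5, 0 and 1 of the 8 genes were called over the 6 times, where 5390, 5552, 4069, 3448, 3760 and 4153 of all 22252 genes were, with MYC2 at 4 d (adjusted p = 0.038) and MYC3 and MYC4 at 7 d (0.038 and 0.0046) added. For the change of effect at 24 h against 30 min the block called MYC3 (0.0040) and not NINJA (0.052), and over all times it called MYC4 (4.97e-05) as well.

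Some log2 values near 0 changed sign. Leaving out 1 library in turn gave -0.0655 to 0.0604 for MYC4 at 4 d (above 0 without control replicate 3 or 4 or infested replicate 2) and -0.3287 to 0.0664 for MYC2 at 7 d (above 0 without control replicate 1). At 12 d it gave -0.0435 to 0.1711 for MYC4 (below 0 without control replicate 1) and -0.1019 to 0.0228 for COI1 (above 0 without control replicate 4 or infested replicate 3). With library totals, which moved the median of all genes at 12 d to -0.10, MYC3, MYC4 and NINJA were -0.006, -0.0173 and -0.0448 at 12 d. The change of effect of JAM3 at 12 d against 7 d was -0.0039 with library totals. At 15 d against 12 d it was 0.0096 with size factors, 0.0267 with library totals, 0.0051 with no filter, 2e-04 with the stricter filter, 0.0031 with the replicate block and 0.0091 with DESeq2. Without length scaling the log2 ratio of the MYC sum to the JAM sum was 1.72 in infested and 1.24 in control plants at 24 h, in the same direction as per kb.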
